A study of Bubalus bubalis with 6 samples.

Results

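The genes described here encode proteins that modify histones or DNA, read those marks, or move nucleosomes, and the question was how much antibody-bound methylated DNA their probes showed in buffalo sperm and whether this differed between subfertile and high-fertile bulls. Members were taken by gene name from a DNA methylation array: histone lysine methyltransferases, a histone demethylase, acetyltransferases and deacetylases (KAT, HDAC and SIRT names), protein arginine methyltransferases (PRMT), bromodomain readers (BRD), chromobox and Polycomb genes (CBX, BMI1), nucleosome remodellers (SMARC, CHD, ARID), DNA methyltransferases, PRDM genes, MLL fusion partners, and the complex subunits SAP18, TFPT and ING. KDM3A and PRDM14 match the same name pattern and were not included. The pattern found 60 of the 7932 gene names on the array and 181 of its 177440 probes.

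Chromatin is switched between open and closed states by such enzymes: methyltransferases and deacetylases of the Polycomb and heterochromatin pathways close it, bromodomain proteins bind acetylated histones at active genes, and remodellers use ATP to slide or evict nucleosomes. In the male germ line, BRD-family readers, arginine methyltransferases and remodellers take part in spermatogenesis, which ends with the replacement of most histones by protamines. Sperm DNA is methylated over most of the genome and largely unmethylated at CpG islands of active germ line and developmental genes, so a high or low value at such a gene describes the DNA that the sperm carries, not the activity of its protein.

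Sperm of 3 subfertile bulls (bulls 1, 4 and 5) and 3 high-fertile bulls (bulls 2, 3 and 5) of the water buffalo, Bubalus bubalis, was measured, with 1 array per bull. Bull 5 of the subfertile and bull 5 of the high-fertile group are separate samples with the same number, and their arrays share a slide and a scan date. The other 4 arrays lie on another slide, which also holds as many subfertile as high-fertile bulls, so a slide block leaves the size of each group difference as it is. No treatment, age or genetic change is given for the bulls, and the labels do not say how fertility was scored. DNA from frozen semen was sheared, fragments holding 5-methylcytosine were pulled down with an antibody (methylated DNA immunoprecipitation), and this immunoprecipitated (IP) DNA, labelled with Cy5, was hybridised together with the same bull's input DNA, labelled with Cy3. Dyes were not swapped, so a dye effect at a probe would be shared by all 6 arrays. A value is log2(IP/input) with the median of the array's probes set to 0: above 0 the antibody bound more DNA than at the median probe. It ranks places within an array and is not a percentage of methylated cytosines. A probe was tested where all 6 arrays had an input signal well above background.

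The file headers give scan dates that part the arrays, with bulls of both fertility groups on either side but not in equal numbers. The later dates hold subfertile bulls 1 and 5 and high-fertile bull 5. The first date holds subfertile bull 4 and high-fertile bulls 2 and 3. A group difference taken without a session block therefore holds part of any difference between these dates. The later dates are pooled here as 1 session, although subfertile bull 1 was scanned alone on the second of 3 dates. Both bulls numbered 5 were scanned on the third. Subfertile bull 1 also shares its slide with the first session and was extracted under another protocol, so the later session is not a single scan batch. Over the 77 tested probes of the chromatin genes, arrays of the same session correlated at 0.42 to 0.81 and arrays of different sessions at 0.041 to 0.38, across probes, which are not independent replicates. At the 77 tested chromatin probes IP signal stood well above background in 100%, 76.6% and 96.1% of probes in subfertile bulls 1, 4 and 5, against 48.1%, 88.3% and 93.5% in high-fertile bulls 2, 3 and 5. Of the listed markers of sperm or of other cells in semen, 2 of 12 germ line genes, 2 of 8 leukocyte genes and 4 of 7 epithelial genes had a tested probe. Of the germ line genes, listed as unmethylated in sperm, HSPA2 averaged 0.10 in subfertile and -0.13 in high-fertile bulls and DDX4 -0.66 and 0.32. The leukocyte genes RUNX3 and PTPRC averaged -0.10 and -0.12 in subfertile bulls, against -0.21 and 0.012 in high-fertile bulls. The epithelial genes DSP, ESRP1, KRT8 and CDH1 averaged -0.24, -0.23, -0.070 and 0.64 in subfertile bulls, against -0.53, -0.20, 0.35 and 0.48 in high-fertile bulls. The groups overlapped at each of these genes, and they ran in both directions. These lists were too thin to check the purity of the sperm, and the part of other cells in the results was not tested. With 1 array per bull, the number of arrays limits how precisely any difference is known.

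The probes are 60-base DNA sequences, and those that carry the results are shown first, along the forward strand of the files' coordinates, with each CpG, the dinucleotide that mammals methylate, in capitals. The coordinates are as the files give them, and the sources used here do not give their genome build. The chromosome numbers run up to 29, as in cattle and beyond those of the water buffalo, so the positions should not be read as places on buffalo chromosomes. The files give no exon, intron or promoter class for a probe. The first 4 are the member probes at which all 3 subfertile bulls lay beyond all 3 high-fertile bulls. The next 2 are the most CpG-rich tested probe of TFPT and, for BRD2, the first of a pair tied for the most CpGs, 2 of the 3 gene regions with that property. The last 5 were chosen after their values were seen: the TFPT probe with the largest group difference among that gene's probes, the SETD1A probe with the most CpGs, the brightest CBX8 probe, the most CpG-rich member probe (CHD2) and a probe without any CpG (SMARCA5).
BRD2, chr23:7559746-7559805: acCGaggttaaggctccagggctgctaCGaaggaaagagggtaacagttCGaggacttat
EHMT1, chr11:110047702-110047761: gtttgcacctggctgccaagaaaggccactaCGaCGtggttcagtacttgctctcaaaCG
CBX8, chr19:54289888-54289947: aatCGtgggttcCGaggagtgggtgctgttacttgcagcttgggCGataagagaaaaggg
CBX6, chr5:117542694-117542753: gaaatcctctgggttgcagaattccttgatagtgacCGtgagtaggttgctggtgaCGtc
BRD2, chr23:7559706-7559765: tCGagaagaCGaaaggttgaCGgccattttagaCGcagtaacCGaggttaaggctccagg
TFPT, chr18:63542949-63543008: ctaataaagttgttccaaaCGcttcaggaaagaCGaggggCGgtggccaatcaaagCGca
TFPT, chr18:63542764-63542823: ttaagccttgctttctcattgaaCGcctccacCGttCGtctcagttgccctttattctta
SETD1A, chr25:28944617-28944676: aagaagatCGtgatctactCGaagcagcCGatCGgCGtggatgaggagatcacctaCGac
CBX8, chr19:54289818-54289877: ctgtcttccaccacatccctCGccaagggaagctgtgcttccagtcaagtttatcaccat
CHD2, chr21:13354374-13354433: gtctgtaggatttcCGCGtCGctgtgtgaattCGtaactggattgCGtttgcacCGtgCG
SMARCA5, chr17:15359484-15359543: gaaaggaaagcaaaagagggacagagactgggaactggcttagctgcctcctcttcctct
Fragments were 300 to 1000 bases long by the labels, so the antibody also saw CpGs outside the probe, and the SMARCA5 probe could carry a signal without a CpG of its own.

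Of the 60 genes, 11 had at least 3 tested probes and are treated as gene regions (the mean over those probes), 29 had 1 or 2 tested probes and 20 had none. Of the 181 probes 77 were tested, or 42.5%, against 38.7% of all named probes and 62.4% of all probes. Tested probes of the chromatin genes held 2.55 CpGs on average and untested ones 0.817, and 48.1% of the untested held none. The regions were the bromodomain genes BRD2 and BRD3, the Polycomb-type genes BMI1, CBX6 and CBX8, the complex subunits ING1, SAP18 and TFPT, the methyltransferases EHMT1 and SETD1A, and the remodeller SMARCA5. The 20 genes without a tested probe, and so without a value here, were BRD7 and BRD9, CBX3 and CBX5, CHD1, CHD1L, SMARCA4 and SMARCAD1, EZH1 and EZH2, SETD5 and SETDB2, ING2, ING4 and ING5, SIRT4 and SIRT5, KDM5A, MLLT11 and PRMT5. Both EZH enzymes, which place the Polycomb mark on histone H3, the demethylase KDM5A and the remodelling ATPase SMARCA4 were therefore not measured.

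No chromatin gene passed the test between subfertile and high-fertile bulls. Across gene regions limma called 0 of 737 (0%), with 6 at an unadjusted p below 0.05 (0.814%), none of them a chromatin gene. Among the 11 chromatin regions the values of all 3 subfertile bulls lay above those of all 3 high-fertile bulls at TFPT, BRD2 and SAP18, and the groups overlapped at the other 8. Over all regions the groups did not overlap at 2.99%, at 1.76% with the subfertile bulls higher and at 1.22% with them lower. The median difference, subfertile minus high-fertile, was 0.22 log2 units over the 11 regions and 0.078 over all 737, and 8 of the 11 lay above 0, against 61.6% of all regions. Within the later dates alone limma called 4 regions (0.543%), 76 smaller genes (2.14%) and 34 probes (0.0307%), and within the first date 4 smaller genes (0.113%), with no chromatin gene among any of these. With the scan session as a block, which compares bulls within a session, these medians were 0.014 and 0.020, and limma called 0 of 737 regions, with 11 at an unadjusted p below 0.05 (1.49%) and no chromatin gene among them. The 3 genes without overlap were reduced to 1 when arrays were centred on the tested probes (TFPT, with 4.34% of all regions), with normexp background correction (BRD2, with 3.12%) and with the median over probes (TFPT, with 2.85%). With no filter on input signal, where 29 chromatin genes have a region, BRD2 and TFPT were without overlap, against 3.19% of 2791 regions. The median was then -0.28 over the 29 and -0.26 over all.

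**Figure D1:**
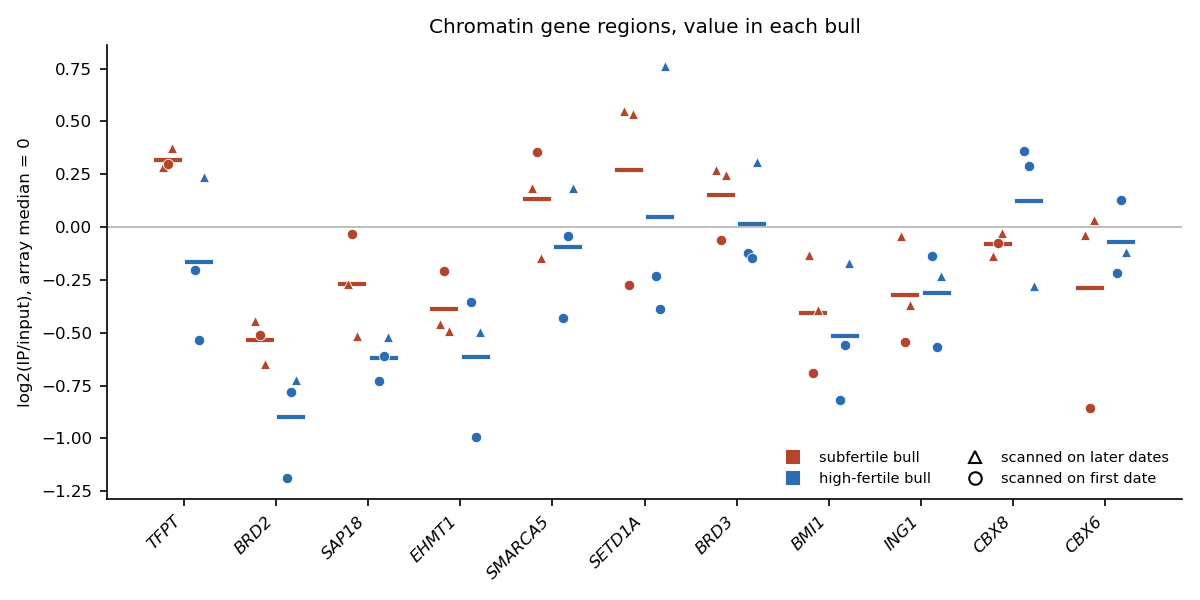
Each point is the log2(IP/input) of a gene region in 1 bull (subfertile left of high-fertile for each gene), bars are group means, and the shape gives the scan session. Red and blue points part at TFPT, BRD2 and SAP18, where the lowest subfertile values were 0.28, -0.65 and -0.51 and the highest high-fertile values 0.24, -0.72 and -0.52; at SETD1A the points part by shape.

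TFPT encodes a subunit of the INO80 remodelling complex and was first known as a fusion partner in childhood leukaemia. Its region (4 probes, chromosome 18, 63542724 to 63543008) had values of 0.28, 0.30 and 0.37 in subfertile bulls 1, 4 and 5, against -0.20, -0.54 and 0.24 in high-fertile bulls 2, 3 and 5. The subfertile bulls lay close together, and the high-fertile bull nearest to them was bull 5, scanned on the later dates. The difference was 0.49 (SE 0.24, 95% confidence interval -0.066 to 1.04; limma unadjusted p = 0.0778, adjusted p = 0.9999), the largest of the 11 regions. It was 0.091 on the later dates and 0.67 on the first date, and 0.30 without high-fertile bull 3; the interaction of group and session did not pass limma's test (adjusted p = 0.994).

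Among the 4 named probes of TFPT the difference sat in the first pair, which share 20 bases. At the probe starting at 63542764, shown above with 3 CpGs, values were 0.42, 0.41 and -0.32 in subfertile bulls 1, 4 and 5, against -1.36, -1.17 and -0.10 in high-fertile bulls 2, 3 and 5. Subfertile bull 5 lay below high-fertile bull 5 there, so the groups overlapped. The difference was 1.04 (SE 0.40; limma unadjusted p = 0.0268, adjusted p = 1), and it was the 1 tested member probe at an unadjusted p below 0.05, against 1.84% of all tested probes. The overlapping probe 63542724 differed by 0.74, whereas the pair at 63542909 and 63542949 differed by 0.065 and 0.094. At 63542764 and at 63542724 the IP signal was well above background in 3 of 3 subfertile and 2 of 3 high-fertile bulls. The 31 unnamed tested probes within 500 bp of the named TFPT probes differed by 0.13 on average (SE 0.24). They had 0.078, -0.30 and -0.039 in subfertile and -0.32, -0.44 and 0.12 in high-fertile bulls, which overlap. An unnamed probe at the coordinates of 63542764 had 0.34, -0.375 and -0.23 in subfertile and -1.31, -0.93 and -0.23 in high-fertile bulls. Subfertile bull 4 was thus lower there than at the named probe. An unnamed probe starting at 63542723 had 0.50, -0.097 and 0.47, against 0.26, -0.32 and 0.34. At the named probe next to it high-fertile bull 3 was at -1.51.

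SAP18 belongs to the SIN3-associated deacetylase complex and to an RNA splicing complex. Its region (3 probes, chromosome 12, 35945904 to 35953747) had values of -0.27, -0.031 and -0.51 in subfertile bulls 1, 4 and 5, against -0.73, -0.61 and -0.52 in high-fertile bulls 2, 3 and 5. All bulls lay below the array median, and subfertile bull 5 was only just above the highest high-fertile bull. The difference was 0.35 (SE 0.22; limma adjusted p = 0.9999), with 0.13 on the later dates and 0.64 on the first date, and it was 0.23 without subfertile bull 4.

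The 3 probes of SAP18 did not move together. They differed between the groups by 0.78, 0.44 and -0.18 in the order of their positions, and between sessions, later minus first with fertility as a second term, by -1.38, 1.85 and -0.79. With the session as a block the group differences were 1.24, -0.17 and 0.085, so the last 2 turned sign. The mean over the gene therefore averages probes that ran in opposite directions. At these probes, in the same order, the IP signal was well above background on 3, 6 and 4 of the 6 arrays. At the first it was so in 2 of 3 subfertile and 1 of 3 high-fertile bulls.

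ING1, a growth-suppressor subunit that binds trimethylated lysine 4 of histone H3, completed the complex subunits with a region. It had values of -0.045, -0.55 and -0.37 in subfertile bulls 1, 4 and 5, against -0.14, -0.57 and -0.23 in high-fertile bulls 2, 3 and 5. The groups had nearly equal means, -0.32 and -0.31, and a difference of -0.0057 (SE 0.23, 95% confidence interval -0.53 to 0.52). ING3, a subunit of the NuA4 acetyltransferase complex, had 1 tested probe and a difference of 0.033 (SE 0.56).

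BRD2 encodes a member of the BET family of bromodomain proteins, which bind acetylated histones and promote transcription. Its region (3 probes, chromosome 23, 7559706 to 7561325) had values of -0.45, -0.51 and -0.65 in subfertile bulls 1, 4 and 5, against -1.19, -0.78 and -0.72 in high-fertile bulls 2, 3 and 5. It was among the least antibody-bound of the chromatin regions in both groups. The difference was 0.36 (SE 0.22, 95% confidence interval -0.13 to 0.86; limma unadjusted p = 0.133, adjusted p = 0.9999), with 0.18 on the later dates, 0.47 on the first date and 0.22 without high-fertile bull 2.

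The 3 probes of BRD2 differed by 0.45, 0.32 and 0.32 over all bulls. With the session as a block they differed by 0.16, 0.38 and 0.43, and on the later dates by -0.24, 0.56 and 0.22, so the first probe turned sign there. In the same order, their IP signal was well above background on 5, 6 and 5 of the 6 arrays. At the probe starting at 7559746 values were -0.55, -0.53 and -0.54 in subfertile bulls 1, 4 and 5, against -0.84, -0.63 and -1.10 in high-fertile bulls 2, 3 and 5. The subfertile bulls had an SD of 0.0075 and all lay above the high-fertile bulls, with a difference of 0.32 (SE 0.29; limma adjusted p = 1). An unnamed probe 1 base on, starting at 7559747, had -0.60, -0.56 and -0.71 in subfertile bulls. The high-fertile bulls had -0.36, -0.55 and -1.04 there, so the groups overlapped. The 25 unnamed probes within 500 bp differed by 0.045 (SE 0.22), so the named and the neighbouring probes gave different sizes for this gene. BRD3, the other BET gene measured, had values of 0.27, -0.060 and 0.25 in subfertile bulls 1, 4 and 5, against -0.12, -0.15 and 0.31 in high-fertile bulls 2, 3 and 5. Its groups overlapped (0.14, SE 0.23; 0.060 and 0.29 when high-fertile bulls 3 and 5 were left out in turn; 0.014 with the session as a block), and the 3 bulls scanned later were the 3 highest.

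**Figure D2:**
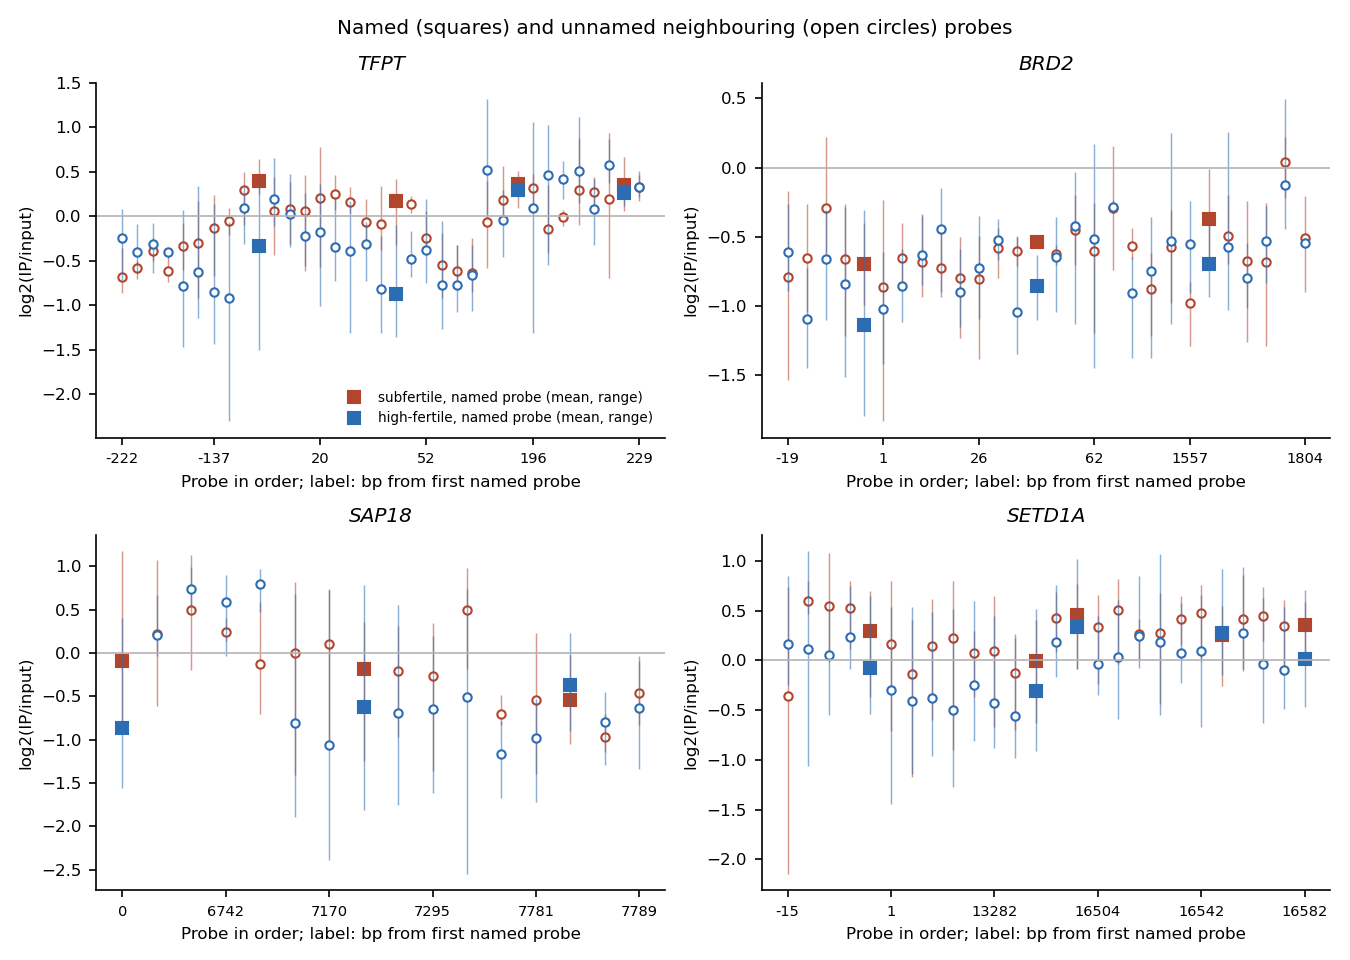
Mean log2(IP/input) of each group at the named probes (squares) and at unnamed tested probes within 500 bp (open circles) of 4 genes, with lines over the range of the 3 bulls; probes stand in order and labels give bases from the first named probe. At TFPT the means differ by 0.74 and 1.04 at the first pair of squares, where the groups overlap. At the last pair they differ by 0.065 and 0.094. At BRD2 the 3 squares differ by 0.45, 0.32 and 0.32.

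The groups overlapped at all 3 Polycomb-type regions. CBX8 and CBX6 encode chromobox proteins that bind trimethylated lysine 27 of histone H3 in Polycomb repressive complex 1, and BMI1 encodes another core subunit of that complex. CBX8 (4 probes, chromosome 19, 54289338 to 54289947) had values of -0.14, -0.073 and -0.028 in subfertile bulls 1, 4 and 5, against 0.36, 0.29 and -0.28 in high-fertile bulls 2, 3 and 5. High-fertile bull 5 lay below all subfertile bulls and the other 2 above them, and the difference was -0.20 (SE 0.24), with 0.20 on the later dates and -0.40 on the first date. It was -0.084, -0.12 and -0.40 without high-fertile bulls 2, 3 and 5.

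CBX6 (3 probes, chromosome 5, 117541854 to 117542753) had values of -0.037, -0.86 and 0.034 in subfertile bulls 1, 4 and 5, against -0.22, 0.13 and -0.12 in high-fertile bulls 2, 3 and 5. Subfertile bull 4 stood lowest, far below the other 5, and without it the difference of -0.22 (SE 0.28) became 0.068. The group difference of CBX6 was 0.12 on the later dates and -0.81 on the first date. Its interaction with the session had an unadjusted p of 0.0443 by limma (adjusted p = 0.994), the 1 member among 3.39% of all regions below 0.05. BMI1 (3 probes that each share 40 bases with the next, chromosome 13, 22894707 to 22894806) had values of -0.13, -0.69 and -0.39 in subfertile bulls 1, 4 and 5, against -0.82, -0.56 and -0.17 in high-fertile bulls 2, 3 and 5. The groups overlapped widely, and the difference was 0.11 (SE 0.25) and -0.049 with the session as a block.

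Single probes of both chromobox genes parted the groups with the subfertile bulls lower. At CBX8 54289888 values were -0.65, -0.73 and -1.05 in subfertile bulls 1, 4 and 5, against -0.0070, -0.19 and -0.63 in high-fertile bulls 2, 3 and 5, a difference of -0.53 (SE 0.31). At CBX6 117542694 values were 0.27, -0.0062 and 0.25 in subfertile bulls, against 1.36, 0.59 and 0.28 in high-fertile bulls, a difference of -0.57 (SE 0.35). The CBX6 value was -0.26 without high-fertile bull 2 and -0.021 on the later dates, and the CBX8 value was -0.22 on the later dates. Neither difference passed limma's test (adjusted p = 1), and in both the gap between the nearest bulls of the groups was small. An unnamed probe starting at 54289887, 1 base before the CBX8 probe, had -0.51, -0.56 and -0.94 in subfertile bulls. The high-fertile bulls had -0.77, -0.36 and -0.63 there, so the groups overlapped. At the CBX6 probe the IP signal was well above background on 4 of the 6 arrays. The overlapping CBX6 probe at 117542674, which shares 40 of its bases, differed by -0.032. In all, the groups did not overlap at 4 of the 77 member probes (BRD2, EHMT1, CBX8 and CBX6), against 5.78% of all tested probes: 2 were higher in the subfertile bulls, against 3.2%, and 2 lower, against 2.58%. Limma called 0 of 110686 probes (0%).

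EHMT1, also called GLP, and SETD1A are histone lysine methyltransferases, the first for lysine 9 of histone H3 and the other for lysine 4. EHMT1 (3 probes, chromosome 11, 110047702 to 110062798) had values of -0.46, -0.21 and -0.49 in subfertile bulls 1, 4 and 5, against -0.35, -0.99 and -0.50 in high-fertile bulls 2, 3 and 5. High-fertile bull 3 stood apart, and without it the difference of 0.23 (SE 0.24) was 0.040. At its probe starting at 110047702 values were -0.26, -0.24 and -0.33 in subfertile bulls, against -0.55, -0.79 and -0.37 in high-fertile bulls, without overlap (0.29, SE 0.29; limma adjusted p = 1). The probe that shares 40 bases with it differed by 0.056. At the probe starting at 110047702 the IP signal was well above background in 3 of 3 subfertile and 2 of 3 high-fertile bulls.

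SETD1A (5 probes, chromosome 25, 28928075 to 28944716) was the chromatin region with the highest mean value, and its bulls parted by session. It had values of 0.55, -0.27 and 0.53 in subfertile bulls 1, 4 and 5, against -0.23, -0.39 and 0.76 in high-fertile bulls 2, 3 and 5. Bulls scanned later averaged 0.62 and bulls scanned first -0.30, with no overlap between sessions, whereas the fertility groups overlapped. The group difference was 0.22 (SE 0.36) and -0.091 with the session as a block. Leaving out single bulls moved it from 0.0051 (without high-fertile bull 3) to 0.58 (without high-fertile bull 5), with 0.083, 0.50 and 0.091 without subfertile bulls 1, 4 and 5 and 0.084 without high-fertile bull 2.

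Between sessions SETD1A differed by 0.94 (SE 0.18; limma adjusted p = 0.0114), and it was the 1 chromatin region of 11 that passed, against 20.8% of all regions (14% higher and 6.78% lower on the later dates). All 5 of its probes were higher on the later dates, and 2 of them passed by themselves in the fit over all probes (adjusted p = 0.0402 and 0.0418). The 21 unnamed probes within 500 bp gave 0.999 (limma adjusted p = 0.000581), close to the size at the named probes. Several of them share most of their bases with a named probe, on the same arrays, so this is not an independent reading. The call on the region was lost when bull 1 or 4 of the subfertile group or bull 5 of the high-fertile group was left out (adjusted p = 0.0700, 0.0792 and 0.190), with the size at 0.82 to 1.07 over all 6 omissions. BMI1 (0.47, adjusted p = 0.0973), CBX6 (0.39, adjusted p = 0.263), BRD3 (0.38, adjusted p = 0.142) and TFPT (0.32, adjusted p = 0.293) were higher on the later dates by size without passing limma's test. BRD3 passed with normexp background correction (0.29, adjusted p = 0.0291), and BMI1 passed without high-fertile bull 3 (0.52, adjusted p = 0.0428). CBX8 (-0.31), SAP18 (-0.11) and EHMT1 (-0.045) had values below 0 without passing, and CBX8 was at -0.0086 without high-fertile bull 5 and -0.60 without subfertile bull 4. With arrays centred on the tested probes SETD1A was at 0.70, BMI1 at 0.23, BRD3 at 0.14, EHMT1 at -0.29, SAP18 at -0.35 and CBX8 at -0.55.

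**Figure D3:**
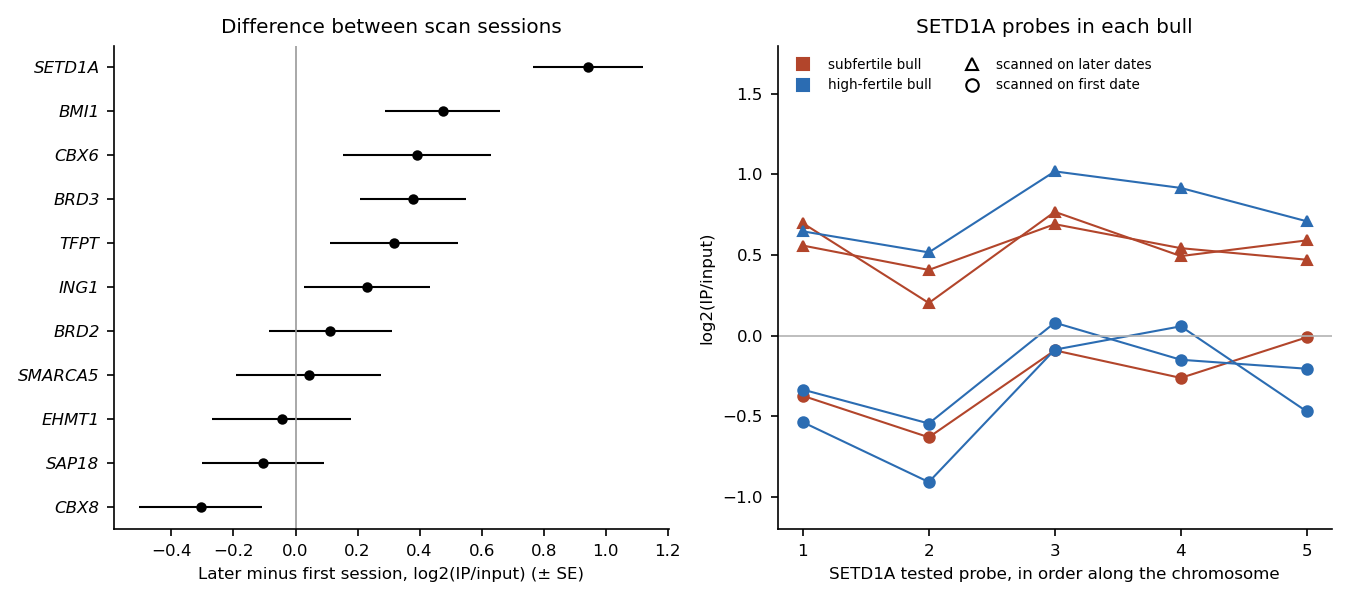
Left, difference between scan sessions (later minus first, fertility as a second term) for the 11 chromatin regions, with SE. Right, log2(IP/input) of the 5 SETD1A probes in each bull, where the 3 bulls scanned later (triangles, subfertile 1 and 5 and high-fertile 5) lie above the 3 scanned first at every probe.

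SMARCA5 encodes the ISWI-type ATPase SNF2H, which spaces nucleosomes. Its region (3 overlapping probes, chromosome 17, 15359484 to 15359618) had values of 0.19, 0.36 and -0.15 in subfertile bulls 1, 4 and 5, against -0.43, -0.043 and 0.18 in high-fertile bulls 2, 3 and 5. The groups overlapped, and the difference was 0.23 (SE 0.25), with -0.16 on the later dates and 0.59 on the first date. It was 0.061 and 0.37 without high-fertile bulls 2 and 5, and 0.12 and 0.37 without subfertile bulls 4 and 5. Its probes differed by 0.11, 0.59 and -0.018, and at the second the IP signal was well above background on 3 of the 6 arrays.

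The 29 genes with 1 or 2 tested probes rest on fewer measurements, and in none of them did the groups part. Limma called 0 of 3549 such genes (0%), with 28 at an unadjusted p below 0.05 (0.789%) and 0 chromatin genes among them. The groups did not overlap in 0 of the 29, against 4.06% of all such genes. Differences ran from -0.50 to 0.80, with 16 above (50.3% of all such genes) and 13 below 0 (SMARCD2, described last, included) and a median of 0.033, against 0.0015 over all. Standard errors were 0.31 to 0.81. The 95% confidence intervals of 5 of the 29 stayed inside 1 log2 unit on either side of 0, against 9 of the 11 regions, so most of these genes have intervals that reach past a doubling or its inverse. With the session as a block 6 of the 29 turned from below to above 0: SMARCE1 was at 0.25, SMARCC2 at 0.23, PRMT3 at 0.20, SETD6 at 0.071, DNMT3B at 0.050 and SETDB1 at 0.0096. Besides ING3, given above, all 29 are described next, whatever their values.

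Arginine methyltransferases, which modify histones and RNA-binding proteins, had the most measured members of this kind after the remodellers. PRMT8, a membrane-bound enzyme best known from brain, had the smallest unadjusted p of the 29 (0.101 by limma). Its 2 overlapping probes averaged -0.020, -1.10 and -0.54 in subfertile bulls 1, 4 and 5, against -1.67, -1.43 and -0.84 in high-fertile bulls 2, 3 and 5. Subfertile bull 4 lay below high-fertile bull 5, and the difference was 0.76 (SE 0.41), with 0.56 on the later dates and 0.44 on the first date. With no filter on input signal, which averages 4 probes, it was 0.017, and the 26 unnamed neighbours gave 0.19 (SE 0.29).

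PRMT1, the main asymmetric arginine methyltransferase, had -0.17, 0.11 and -0.61 in subfertile bulls 1, 4 and 5, against -0.53, -0.90 and -0.77 in high-fertile bulls 2, 3 and 5, a difference of 0.51 (SE 0.33) at 1 probe. Subfertile bull 5 alone lay inside the range of the high-fertile bulls. PRMT7, the monomethylating enzyme, had -0.30, -0.42 and -0.35 in subfertile bulls 1, 4 and 5, against -0.91, -0.92 and -0.10 in high-fertile bulls 2, 3 and 5, a difference of 0.29 (SE 0.35). PRMT3, of the cytoplasm, differed by -0.19 (SE 0.60), PRMT6 by -0.24 (SE 0.38) and PRMT10 by -0.23 (SE 0.34).

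The deacetylases split as widely. SIRT1, the NAD-dependent deacetylase, had a difference of 0.80 (SE 0.54) at 1 probe, with values of 0.11, 0.096 and -0.32 in subfertile bulls 1, 4 and 5, against -0.53, -2.01 and 0.024 in high-fertile bulls 2, 3 and 5. High-fertile bull 3 was far below the other 5, and the IP signal was well above background in 2 of 3 subfertile bulls and 1 of 3 high-fertile bulls. HDAC11 differed by 0.52 (SE 0.33), with the signal above background in 3 of 3 and 1 of 3 bulls of these groups. HDAC1, the catalytic subunit of several repressor complexes, differed by -0.36 (SE 0.41) and SIRT6, of telomeric chromatin, by 0.00022 (SE 0.40).

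Among the remaining genes grouped by name under histone methylation and acetylation, MLL5 differed by -0.36 (SE 0.31) and SETD6 by -0.25 (SE 0.44). The H3 lysine 9 enzymes SETDB1 and SUV39H2 differed by -0.27 (SE 0.49) and 0.35 (SE 0.64). KAT5, the TIP60 acetyltransferase, had -0.72, -0.51 and -0.59 in subfertile bulls 1, 4 and 5, against -0.22, -1.14 and -0.34 in high-fertile bulls 2, 3 and 5, a difference of -0.040 (SE 0.36). DNMT3B, a de novo DNA methyltransferase and the 1 gene of DNA methylation in the list, had -0.55, 0.31 and -0.77 in subfertile bulls 1, 4 and 5, against -0.45, 0.29 and -0.37 in high-fertile bulls 2, 3 and 5. The difference was -0.16 (SE 0.41) at its only probe, which holds 1 CpG. PRDM6 and PRDM10, zinc finger genes of the PR domain family, differed by 0.15 (SE 0.35) and 0.079 (SE 0.36), and MLLT3, a reader of acylated histones, by 0.21 (SE 0.38).

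Remodellers gave 9 genes. The SWI/SNF subunit ARID1A had 1 probe without a CpG and differed by 0.63 (SE 0.59), with subfertile bull 4 at 1.35 and the other 5 bulls between -1.23 and -0.11. SMARCB1, SMARCC2 and SMARCE1 of the SWI/SNF complex differed by 0.38 (SE 0.33), -0.057 (SE 0.44) and -0.22 (SE 0.71). ARID4B, a SIN3 complex subunit, differed by -0.50 (SE 0.47). The chromodomain helicases CHD2, CHD8 and CHD9 differed by 0.049 (SE 0.32), 0.21 (SE 0.81) and -0.38 (SE 0.45). CHD2 had -0.51, -0.76 and -0.83 in subfertile bulls 1, 4 and 5, against -0.54, -1.10 and -0.61 in high-fertile bulls 2, 3 and 5. At SMARCD2, the last SWI/SNF gene, the IP signal was well above background in 2 of 3 subfertile bulls and in 0 of 3 high-fertile bulls, so its high-fertile values are only a bound, and no fold above 1 between the groups was left.

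**Figure D4:**
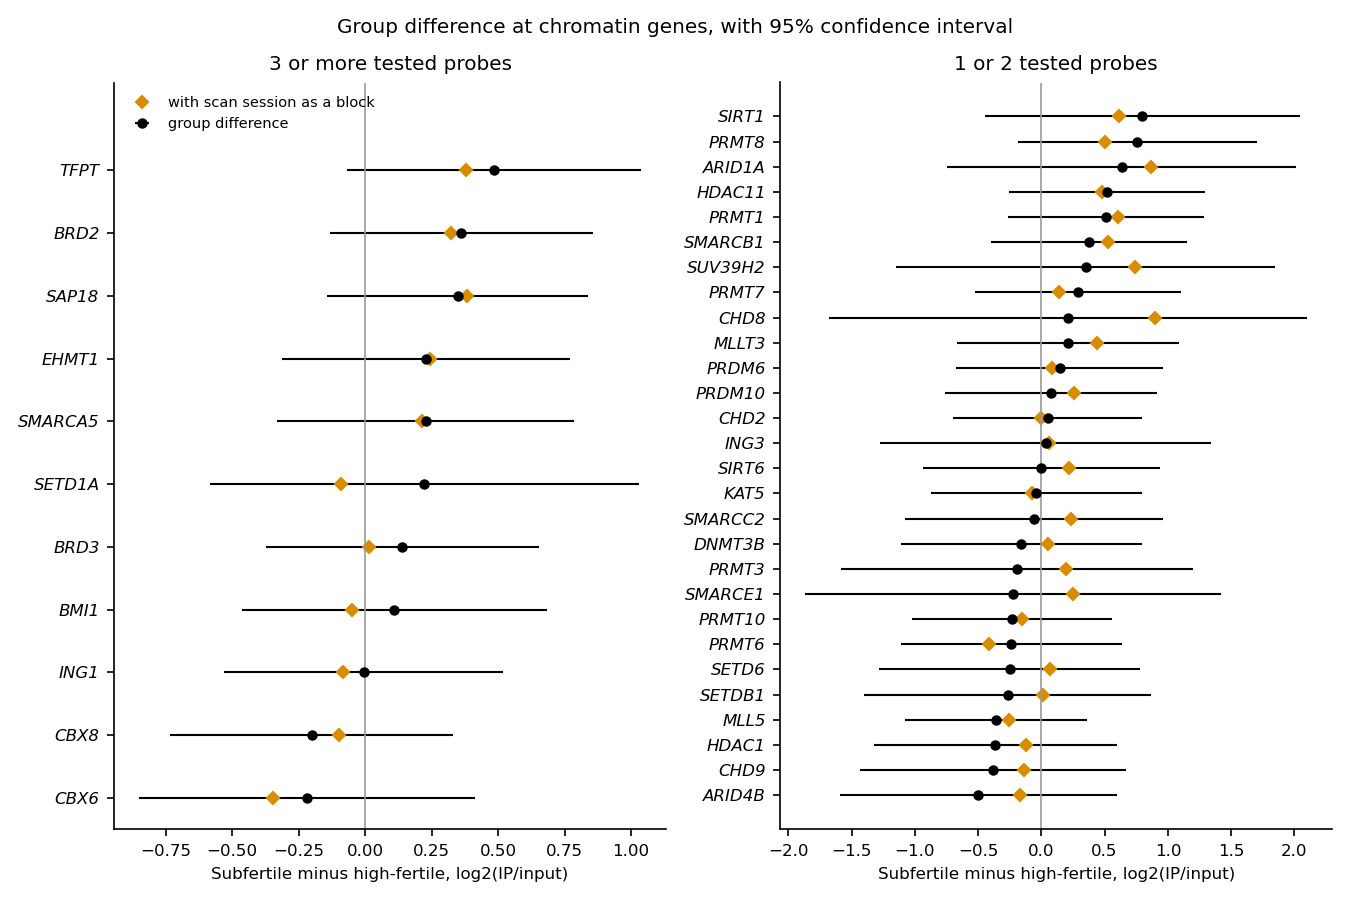
Difference in log2(IP/input), subfertile minus high-fertile, with its 95% confidence interval (black) and the difference with the scan session as a block (diamonds), for genes with 3 or more tested probes (left) and with 1 or 2 (right, other scale; SMARCD2 left out). All intervals hold 0, and the largest differences are 0.49 at TFPT on the left and 0.80 at SIRT1 on the right.

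The unnamed probes that lie within 500 bp of the named ones gave a second reading of 22 chromatin genes on the same arrays. Many of them share most of their bases with a named probe, and some have its coordinates. This reading is therefore not independent of the first. It was added after the data were seen. Of the 22 genes 20 lay above 0 and 2 below, against 1661 above and 489 below of all 2150, and the median of 0.14 equalled that of all genes measured this way (0.14). The groups did not overlap at CHD2 and PRMT1, against 2.14% of all genes. CHD2, a chromodomain remodeller, had neighbours at -0.89, -0.91 and -1.02 in subfertile bulls 1, 4 and 5, against -1.47, -1.21 and -1.05 in high-fertile bulls 2, 3 and 5 (0.30, SE 0.21). PRMT1 had -0.042, -0.099 and -0.17 in subfertile bulls, against -0.36, -0.52 and -0.32 in high-fertile bulls (0.29, SE 0.20). Neither passed limma's test (adjusted p = 0.999). TFPT, BRD2 and SAP18 overlapped in this reading. Between sessions 6 of the 22 genes passed, against 41% of all. PRMT1 was also higher in the subfertile group at its named probe (0.51), though with overlap, while CHD2 was at 0.049 at its named probes.

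Across both groups, the levels of the chromatin genes are given as a description. They come from different probes with different CpG counts, so their order is one of probe values and does not measure how much of a gene is methylated. The median level of the 11 regions was -0.18, close to -0.19 for all 737 regions, with 6 of the 11 above that median (49.9% of all); among the 29 smaller genes the median was -0.26, against -0.13 for all 3549, with 9 above (50% of all). Of the 20 genes with at least 2 tested probes, SETD1A (0.16 ± 0.51), BRD3 (0.083 ± 0.21), TFPT (0.076 ± 0.36), CBX8 (0.022 ± 0.25) and SMARCA5 (0.018 ± 0.28) were the highest (SD over 6 bulls). PRMT8 (-0.93 ± 0.60), CHD2 (-0.72 ± 0.22), BRD2 (-0.72 ± 0.26), KAT5 (-0.59 ± 0.33) and PRMT7 (-0.50 ± 0.34) were the lowest. Neighbours in this order differ by less than their SD over bulls, and SETD1A had 0.62 on the later dates and -0.30 on the first date. In the order of all 737 regions SETD1A ranked 82 and BRD2 709.

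The probes of a gene could differ more than the genes did. At CBX8 the probe starting at 54289818, which holds 1 CpG, had values of 0.75, 1.32 and 2.17 in subfertile bulls 1, 4 and 5, against 1.49, 1.96 and 1.23 in high-fertile bulls 2, 3 and 5. It averaged 1.49, whereas the other 3 probes of the gene averaged -0.46, -0.40 and -0.54, and all 6 bulls showed this high value. The IP signal there was well above background on 4 of the 6 arrays. ING1 likewise held a probe at -1.07 and others at 0.12 and 0.0071, and BRD3 ran from -0.46 to 0.77.

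Over the whole array, probes with more CpGs had lower values. The median over all tested probes was -0.062 at probes without a CpG and -0.35 at probes with 7. Spearman correlations between CpG count and value across all tested probes were -0.033, -0.16 and -0.063 in subfertile bulls 1, 4 and 5 and -0.15, -0.18 and -0.048 in high-fertile bulls 2, 3 and 5. These correlations were weak, at -0.15 to -0.18 in the bulls scanned first and weaker, at -0.033 to -0.063, in those scanned later. Over the 77 chromatin probes the correlations were -0.014, -0.33 and -0.10 in the subfertile and -0.042, -0.32 and -0.035 in the high-fertile bulls. Set against all tested probes with the same number of CpGs, 48 of the 77 chromatin probes were below the median and 29 above, with a median gap of -0.15, and 24 of the 40 genes were below. CHD2, whose probe shown above holds 7 CpGs, and BRD2, with 4.33 CpGs per probe, were at -0.41 and -0.48 relative to probes of like CpG count, whereas SETD1A, with 3, was at 0.33. At PRMT8, with 2 CpGs per probe, the gap was -0.81.

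**Figure D5:**
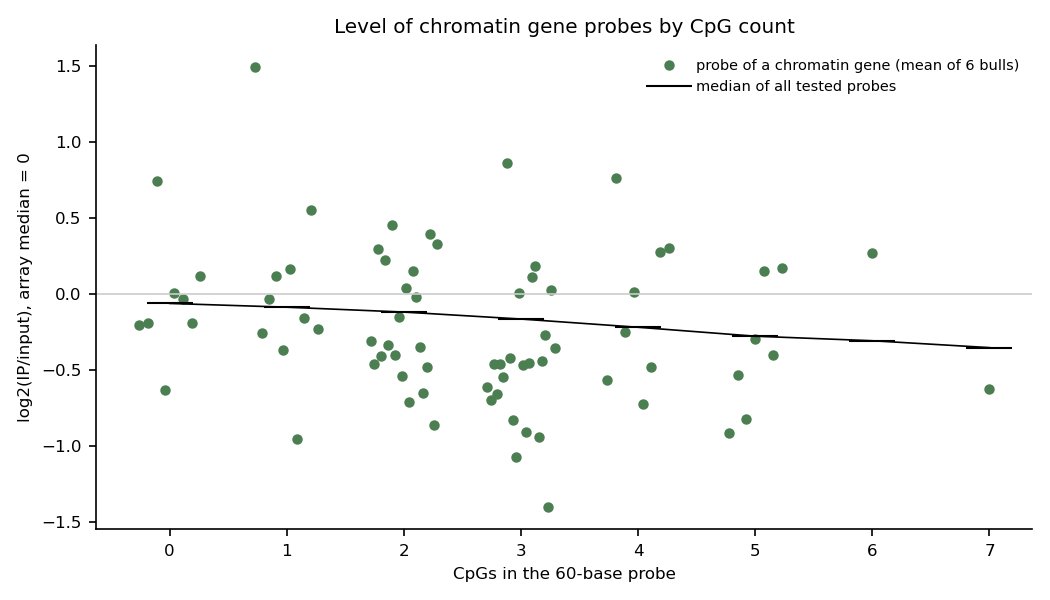
Mean log2(IP/input) over 6 bulls of the 77 tested chromatin probes (points) by the number of CpGs in the probe, with the median of all tested probes (line). The line falls to -0.35 at 7 CpGs, 48 of the points lie below it and 29 above, and the highest point (1.49) is the CBX8 probe with 1 CpG.

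Among the smaller genes, CHD8 and SETD6 passed limma's test between sessions. CHD8, a chromodomain helicase, had values of 0.23, 2.52 and 0.16 in subfertile bulls 1, 4 and 5, against 0.72, 2.0 and -0.45 in high-fertile bulls 2, 3 and 5. The bulls scanned first were the 3 highest, and the difference between sessions was -2.07 (SE 0.39; limma adjusted p = 0.0133). SETD6, which methylates a subunit of NF-kappa-B, had -0.70, 0.058 and -0.88 in subfertile bulls, against -0.057, 0.25 and -0.97 in high-fertile bulls, and a session difference of -0.96 (SE 0.26; adjusted p = 0.0392). These 2 of 29 stand against 21.9% of all smaller genes, 7.13% higher and 14.8% lower on the later dates. Of the 77 probes, 6 passed between sessions, against 8.08% of all: 3 were higher on the later dates (SETD1A with 2 and SAP18 with 1), against 6.5% of all probes, and 3 lower (ARID4B, CHD8 and SETD6), against 1.58%. The median over all tested probes lay between -0.10 and -0.013 in the 3 bulls scanned later and between -0.33 and -0.26 in the 3 scanned first, and how many genes count as higher or lower between sessions moves with this offset.

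Other chromatin genes, taken from a list that the name pattern does not reach, did not pass the test either. Of 112 listed genes 5 had a region (ASH1L, BAZ1B, MBD5, NCOR1 and RUVBL1) and 25 had 1 or 2 tested probes. Limma called 0 of the 5 and 0 of the 25, with 0 of either at an unadjusted p below 0.05. Of the regions 2 lay above and 3 below 0 (median -0.017, against 0.078 over all regions), and of the smaller genes 6 above and 19 below (median -0.10). With the session as a block both medians turned, to 0.16 for the regions and 0.025 for the smaller genes. RUVBL1, an ATPase of the INO80 complex to which TFPT belongs, had a mean of -0.39 in subfertile and -0.43 in high-fertile bulls (0.037, SE 0.22), and the co-repressor NCOR1 had -0.47 and -0.55 (0.073, SE 0.25).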

How the data were processed

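Sperm DNA of 6 buffalo bulls was measured on 2-colour Agilent arrays of 177440 non-control probes, 19762 of them with a gene name. The scanner tables give the intensity of each spot as deposited, unlogged, and extracted per the file headers with Agilent Feature Extraction 10.7.3.1, under the CGH protocol for subfertile bull 1 and the ChIP protocol for the other 5. The deposited log10 ratio of each spot, per the file headers, is red over green, here IP over input. The deposited series table holds that ratio on the log2 scale, uncentred, as a comparison with the scanner files showed. Gene names stand in the scanner files of the first session and were joined by spot; 57 of the 60 member names were found in RefSeq names for the buffalo assembly NDDB_SH_1.

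Here log2(IP/input) was taken from processed signals and set to a median of 0 on each array over its non-control probes, with no loess and no quantile step. Tested probes (110686) had no non-uniformity flag. Subfertile and high-fertile bulls were compared in limma 3.58.1 (under R 4.3.3, by lmFit with eBayes; tests were 2-sided with a threshold of 0.05 after Benjamini-Hochberg adjustment over all features) in separate fits over 737 gene regions, 3549 genes with 1 or 2 tested probes, and 110686 probes. Sessions were compared with fertility as a second term. A fit within 1 session has a lone bull on one side and takes its spread from the rest. Version 1.17.8 of data.table, pandas 2.3.3 and matplotlib 3.10.9 were also used. The limma step was tested on simulated data.

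Genes named with values in each bull are all members with 3 or more tested probes, the 5 highest and lowest levels, probes whose groups do not overlap, and the smallest p between sessions; others are given as complete lists or were chosen after their values were seen. The members and lists were chosen with earlier results of these data known. Alternatives were other centring, background correction, filters, blocks, summaries and leaving out each bull. P-values measure the spread between these bulls. A probe sequence of SAP18 and that probe's values in each bull are not reported here.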

Additional observations from a re-analysis of the deposited data

How the results depend on the processing

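No paired analysis was made, because the labels do not pair bulls across the groups and a shared bull number is not a pair. The count of 0 calls between fertility groups held for gene regions, smaller genes and probes under every setting run except within single sessions: on the later dates limma called 4 regions, 76 smaller genes and 34 probes, and on the first date 4 smaller genes, with 0 chromatin genes among them. The group differences of the 11 gene regions kept their sign except as follows. With normexp correction CBX6 was at 0.0095 and ING1 at 0.063; with the series table ING1 was at 0.0028, and with the median over probes at 0.034. With no filter BMI1 was at -0.32 and BRD3 at -0.15, and with no filter and the session block BMI1 was at -0.20, BRD3 at -0.087 and SETD1A at -0.091. With the session block alone BMI1 was at -0.049 and SETD1A at -0.091. On the later dates BMI1 was at -0.094, BRD3 at -0.047, CBX6 at 0.12, CBX8 at 0.20, ING1 at 0.027, SETD1A at -0.22 and SMARCA5 at -0.16, and on the first date BMI1 was at -0.0031. Of the 29 smaller genes 6 turned sign with the session block, 12 on the later dates and 5 on the first date. At unnamed neighbouring probes CBX6 was at 0.11 and ING1 at 0.15. Leaving out each bull in turn gave -0.043 to 0.28 for BMI1, -0.38 to 0.068 for CBX6, -0.14 to 0.11 for ING1, -0.40 to -0.084 for CBX8, 0.040 to 0.36 for EHMT1, 0.30 to 0.69 for TFPT, 0.22 to 0.45 for BRD2 and 0.23 to 0.47 for SAP18. The number of regions called between sessions, 153, was 290 with normexp, 95 with the IP signal required on all arrays, and 1599 of 2791 with no filter. It ran from 0 (without high-fertile bull 5) to 249 (without high-fertile bull 2) when a bull was left out, with 1 without subfertile bull 1, 3 without subfertile bull 4 and 53 without subfertile bull 5; fewer arrays were then tested. The session difference was 0.25 for SAP18, 0.18 for EHMT1 and -0.0093 for CBX8 with normexp, and -0.34 for BMI1, -0.20 for BRD3 and 0.11 for SAP18 with no filter. Without single bulls it ran from -0.36 to 0.15 for SAP18 and from -0.27 to 0.18 for EHMT1. The causes of these changes were not tested. TFPT, BRD2 and SAP18 had a positive difference under every setting run for gene regions that measured them. They were singled out because their groups did not overlap, so blocks, single sessions and leaving out a bull could not turn the sign. Those settings therefore say nothing on whether the sign holds. With normexp the differences of TFPT, BRD2 and SAP18 shrank to 0.29, 0.10 and 0.19. With normexp EHMT1 was at 0.12, SMARCA5 at 0.095, CBX8 at -0.051 and BMI1 at 0.023. Signal over background limits these values: 33 of the 77 chromatin probes had an IP signal well above background in all 6 bulls. Requiring this left 2 chromatin regions, BRD3 and SETD1A, and so gave no value for TFPT, BRD2 or SAP18.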
